A study of Homo sapiens with 3 samples.

Results

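Cluster 8 of the deposited clustering is a group of 749 cells among 19237 annotated cells of CAMA-1 spheroids, and 681 of them (90.9%) came from drug-sensitive cells that had been grown alone. CAMA-1 cells are a long-established breast cancer line that expresses the estrogen receptor. Its members are the cells that carry the number 8 in the authors' clustering at resolution 0.8. Sensitive cells were labelled with the yellow fluorescent transgene mVenus, and cells made resistant to ribociclib by long growth in the drug were labelled with mCherry. Spheroids were started from 2000 cells that were 100%, 50% or 0% sensitive, and all of them received DMSO with 1 µM ribociclib for 11 days, so no untreated cells were at hand. Each composition gave 1 single-cell library, made from thawed cells with 10X Genomics 3′ chemistry, which counts captured RNA molecules by unique molecular identifiers (UMIs).

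Ribociclib inhibits CDK4 and CDK6, the kinases that cyclin D1 activates and that phosphorylate the retinoblastoma protein so that E2F factors can start DNA synthesis. Inhibited luminal cells usually rest in G1 and stay alive. The estrogen receptor drives cyclin D1 and a set of luminal target genes in such cells. Starved or stressed cells reduce translation and make the factors ATF4 and DDIT3, which raise amino acid transport genes and the secreted stress cytokine GDF15.

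Among sensitive cells grown alone, cluster 8 held 681 of 3329 cells, or 20.5% (exact binomial interval 19.1% to 21.9%). In coculture with resistant cells it held 44 of 2059 sensitive cells (2.14%). A further 9 members were resistant cells of the coculture and 15 were resistant cells grown alone. Cluster 4, the largest cluster of the sensitive monoculture, held 1945 cells of that library and 84 sensitive coculture cells. The other 703 monoculture cells included 267 in cluster 3, 232 in cluster 7 and 156 in cluster 12. Unless another population is named, the values below are for the 681 monoculture members and for the 1945 cluster 4 cells of the same library, so that both come from 1 library. With 1 library per condition there is no replicate error, no test was run, and the intervals cover counting error at 95% only. The clusters were drawn from these same expression values, so every difference between them is a description.

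Cluster 8 cells were the shallower ones. Their median was 21423 UMIs (quartiles 17383 and 25674) against 29523 (22594 and 36969) in cluster 4, with 4139 and 4726 genes per cell. After each cell was thinned to 5000 UMIs the median number of genes was 1736 and 1721. Mitochondrial genes took a median of 21.3% of UMIs in both clusters. In cluster 4, 405 cells (20.8%) lay at or below the cluster 8 median, so the depths overlapped. The doublet caller scrublet scored 3 of 681 cluster 8 cells (0.441%) above 0.25, and 36 of 1945 cluster 4 cells (1.85%). Library pairs shared 34 to 60 barcode sequences, 7 to 17 of them annotated in both, and 1 cluster 8 barcode was annotated again in another library.

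The authors' methods state that cells were kept by their transgene UMIs, but annotated monoculture cells without one were present. mVenus was seen in 65.9% of cluster 8 cells and in 68.0% of cluster 4 cells. Whether cells with the other transgene had been removed was not tested. mCherry was seen in 0 of 681 cells, where 3 of 681 (0.441%) is taken as the limit for detection of its UMIs. Among resistant cells grown alone, mCherry was seen in 72.9%. The luminal markers were present in quantity, with KRT19, a luminal keratin, at 3354 CPM (UMIs of a gene per 1000000 UMIs of all genes in the same cells), GATA3, a luminal transcription factor, at 339 CPM and EPCAM, an epithelial adhesion protein, at 319 CPM. The 5 immune markers summed to 1.06 CPM, the 3 endothelial ones found in the files to 0.200 CPM and the 5 fibroblast ones to 8.78 CPM, against 45.4 CPM for fibroblast markers in cluster 4, where COL3A1, a collagen, gave 42.7 CPM of it. PTPRC, the pan-leukocyte marker, had 1 UMI in the whole cluster. The 3 libraries held 173405094, 519475237 and 359599734 UMIs of named genes (sensitive monoculture, coculture, resistant monoculture) in 8643, 20227 and 11502 barcodes.

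FABP7, a fatty acid-binding protein that had been put forward as the marker of cluster 8, went against that label. It stood at 537 CPM (525 to 549) in cluster 8 and at 1775 CPM (1765 to 1786) in cluster 4, which is 3.31 times higher. Resistant cells grown alone had 0.808 CPM, so among these 3 levels that of cluster 8 lay in the middle. Over all cells of each cluster, FABP7 was at 517 CPM in cluster 7, 410 in cluster 12, 382 in cluster 3 and 213 in cluster 9. By these pooled sums, which mix lineages and libraries, only cluster 4 was above the cluster 8 monoculture cells. In the sensitive monoculture the median cell had 51.6 CPM in cluster 8, 42.2 CPM in cluster 12 and 446 CPM in cluster 4. In clusters 3, 7 and 9 of that library it had 380, 713 and 190 CPM, so all 3 lay above cluster 8 there. A UMI of FABP7 was present in 64.9% of cluster 8 cells, in 81.7% of cluster 4 cells and in 1.79% of resistant cells grown alone, at median depths of 21423, 29523 and 35443 UMIs. Resistant cells had 14.4 CPM in coculture, above their level alone, and the source of these UMIs was not tested. Free RNA in the sensitive monoculture was not measured, so it is not known whether a single UMI means expression. FABP7 exceeded 500 CPM in 123 of 681 cluster 8 cells (18.1%, 15.2% to 21.2%) and in 957 of 1945 cluster 4 cells (49.2%, 47.0% to 51.5%). The cells are therefore named by their cluster number here.

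Cluster 8 differed from cluster 4 by higher EDN1, SPTSSB, SAT1, LTBP1 and LINC01133, in the sum and in the median cell. It also differed by very high GDF15 in some of its cells, and by lower SNCG, FABP7, GAPDH and CTSD. Over the 6933 genes whose 2 levels averaged 10 CPM or more, 562 (8.11%) were higher in cluster 8 by at least 0.5 on the log2 scale and 354 (5.11%) were lower, with 1 CPM added before the logarithm. The split depended on the scaling, and with edgeR's TMM factors 422 were higher and 470 lower. In cells of both clusters between 20000 and 35000 UMIs, 307 were higher and 264 lower, and in cells with a mitochondrial percent below 20, 950 were higher and 490 lower.

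EDN1 encodes endothelin-1, a secreted peptide that constricts vessels and stimulates growth of several cell types. It was measured at 233 CPM (225 to 241) in cluster 8 and at 67.4 CPM (65.3 to 69.5) in cluster 4, a log2 ratio of 1.78. Over all cells of each cluster, the next highest of the 13 other clusters of at least 50 cells was cluster 4. The median cell had 172 CPM in cluster 8 and 45.0 CPM in cluster 4. At an equal 5000 UMIs, 54.3% of cluster 8 cells and 25.1% of cluster 4 cells had a UMI. The higher level was thus seen in most cells of the cluster. The 39 sensitive monoculture cells of cluster 9 lay between the 2 clusters, with a median of 106 CPM and a UMI in 35.9% of thinned cells.

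SPTSSB, a small subunit of the enzyme that starts sphingolipid synthesis, had the same form. Its level was 354 CPM (345 to 364) against 84.8 CPM (82.5 to 87.2), and 68.0% against 30.3% of thinned cells had a UMI. LTBP1, which holds latent TGF-beta in the matrix, stood at 100.3 CPM against 33.7 CPM. LINC01133, a long noncoding RNA, stood at 120.1 CPM (114.6 to 125.8) against 20.6 CPM (19.4 to 21.8), and the highest other cluster, cluster 4 over all libraries, had 20.5 CPM. SAT1, which acetylates polyamines for export or breakdown, stood at 131 CPM (126 to 137) against 28.3 CPM (27.0 to 29.7), with a highest other level of 72.4 CPM in cluster 12. These 4 genes and EDN1 kept log2 ratios of at least 1.34 under each of the 15 alternative settings. The levels of other clusters given here pool lineages and libraries. In the 39 sensitive monoculture cells of cluster 9, SPTSSB had a UMI in 59.0% of thinned cells and SAT1 in 38.5%. For LINC01133 and LTBP1 the shares were 23.1% and 5.13%. Cluster 8 had 68.0%, 37.6%, 37.0% and 37.0% in the same order.

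The other high genes had varied roles. TMSB4X, which binds actin monomers, was at 6397 CPM in cluster 8 and 2874 CPM in cluster 4, with a UMI in each of the 681 cells. MYH9, the heavy chain of nonmuscle myosin, was at 205 CPM and 93.3 CPM. TXNRD1, a selenium-containing reductase of the antioxidant defence, was at 122 CPM and 45.0 CPM. PERP, a desmosome protein and p53 target, was at 120.4 CPM and 48.3 CPM. BAMBI, a decoy receptor of the TGF-beta family, was at 70.2 CPM and 35.4 CPM. The remaining high genes named by the rule were PLPP2, IER5L, MYLIP, STOM and TMCO3, with log2 ratios of 1.15 to 1.38. In each of these pairs the counting intervals did not overlap.

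**Figure D1:**
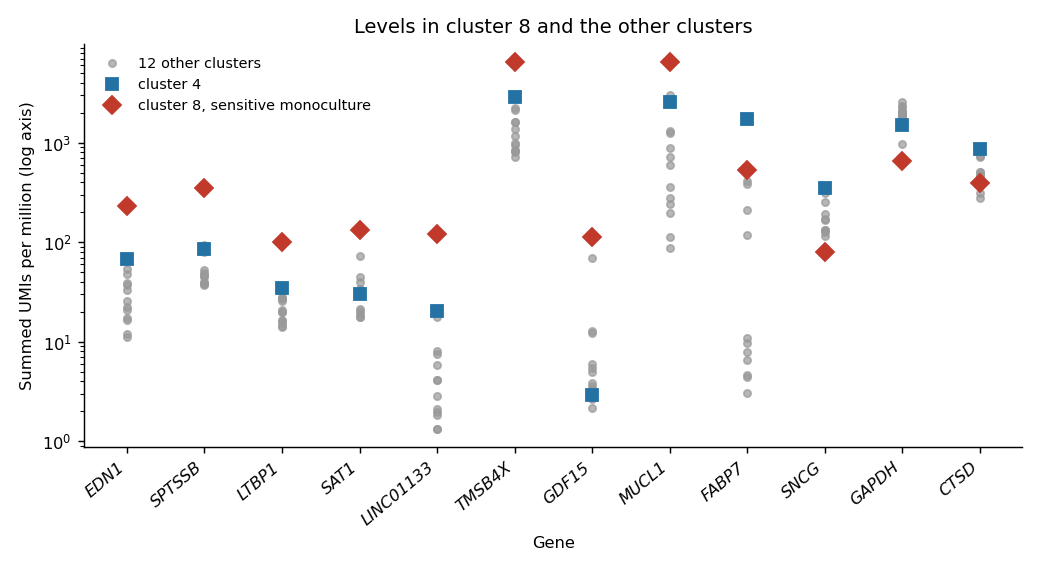
Levels of 12 named genes in CPM on a log axis. Diamonds are the 681 sensitive monoculture cells of cluster 8, squares all cells of cluster 4 and grey points all cells of each of the other 12 clusters of at least 50 cells. EDN1, SPTSSB, LTBP1, SAT1, LINC01133, TMSB4X, GDF15 and MUCL1 lie above every other cluster. FABP7 lies below cluster 4 and above the other 12 clusters, whose points pool lineages and libraries. Among sensitive monoculture cells, the median FABP7 level was higher in clusters 3, 7 and 9 than in cluster 8. GAPDH lies below every other cluster and SNCG below all but cluster 2.

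Among the genes that averaged 50 CPM or more, SNCG and FABP7 had the lowest ratios, while some genes of lower level, given with their lists, had lower ones. GAPDH, the glycolytic dehydrogenase, was at 659.7 CPM (646.8 to 672.8) in cluster 8 and at 1505 CPM (1495 to 1515) in cluster 4, and cluster 8 was below all 13 other clusters. SNCG, gamma-synuclein, was at 79.9 CPM (75.4 to 84.5) and 343 CPM (338 to 348), a log2 ratio of -2.09. A UMI of SNCG was found in 49.6% of cluster 8 cells and 82.2% of cluster 4 cells. CTSD, an estrogen-induced lysosomal protease, was at 395 CPM and 875 CPM. GGH, which cleaves folate polyglutamates, was at 27.9 CPM and 86.9 CPM. PPIF, the cyclophilin of the mitochondrial matrix, was at 38.0 CPM and 98.8 CPM, and GPX1, a glutathione peroxidase, at 139 CPM and 301 CPM. In cluster 12 CTSD, GGH, PPIF and GPX1 were at 416, 36.0, 55.8 and 192 CPM. The other low genes by the rule, ADIRF, LY6E, ANKRD37, PITX1, EAF1, QPRT, DEGS2 and RHOBTB3, had log2 ratios of -1.14 to -1.45.

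GDF15 showed the highest ratio of all, and it was carried by a minority of cells. The gene lies on chromosome 19 from 18485541 to 18499986 on the plus strand (GRCh37, GENCODE 44 lifted). It was measured at 113 CPM (108 to 119) in cluster 8 and at 2.33 CPM (1.95 to 2.75) in cluster 4, which is 48.7 times higher. Among the 3329 annotated cells of the sensitive monoculture, cluster 8 supplied 15.6% of all UMIs and 89.6% of the GDF15 UMIs. Yet only 178 of 681 cells (26.1%) had a GDF15 UMI, against 3.91% of cluster 4 cells and 8.32% of resistant cells grown alone, and the 68 cells with most held 89.3% of them. The maximum was 200 UMIs in 1 cell. Cluster 13, made up of 55 resistant coculture cells, 51 resistant monoculture cells and 1 sensitive cell from each culture, came next with 69.9 CPM.

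MUCL1, a small mucin of the breast, was a similar case of unevenness. Summed over cells it was 2.61 times higher in cluster 8 (6421 against 2459 CPM). The median cell had 555 CPM in cluster 8 and 673 CPM in cluster 4, so the usual cluster 8 cell had no more MUCL1 than the usual cluster 4 cell. The upper end made the difference, with a ninetieth percentile of 16562 CPM in cluster 8 and 5669 CPM in cluster 4.

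**Figure D2:**
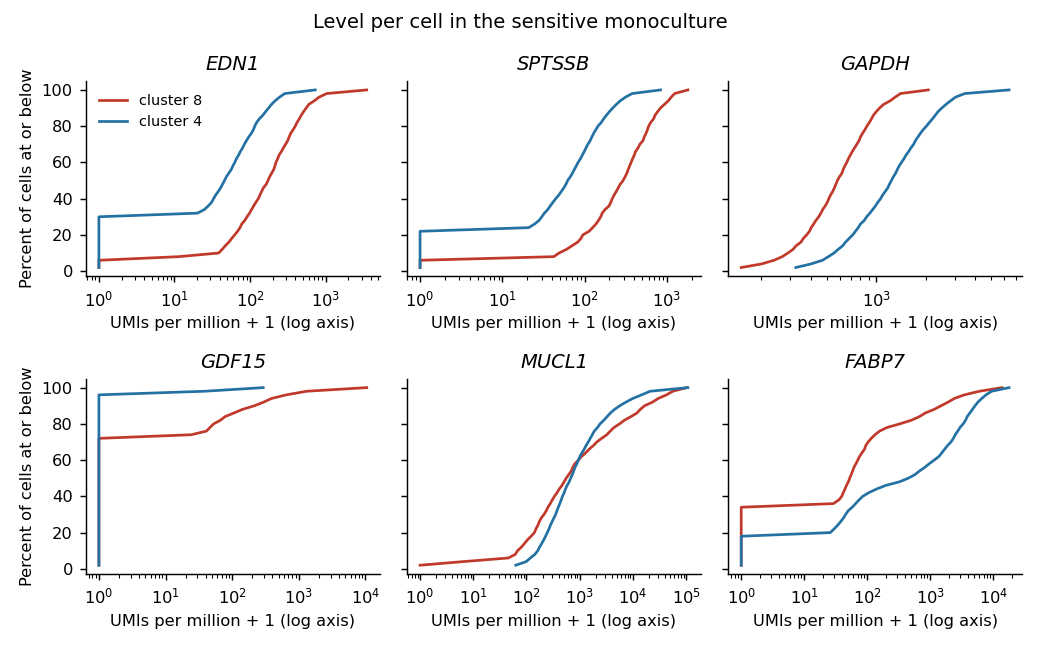
Share of cells (percent) at or below each level per cell (CPM plus 1, log axis) in cluster 8 (red, 681 cells) and cluster 4 (blue, 1945 cells) of the sensitive monoculture. The EDN1, SPTSSB and GAPDH curves are shifted along their length, the GDF15 curve of cluster 8 leaves 0 only in its top 26.1% of cells, and the MUCL1 curves cross.

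These differences were also set beside depth. When cluster 8 was cut into 3 sets of 227 cells by UMIs, GDF15 was at 144, 134 and 82.1 CPM from the shallowest to the deepest set, and at 0.982, 2.11 and 2.47 CPM in cluster 4 cells cut at the same 2 depths. EDN1 was at 330, 254 and 168 CPM in cluster 8 and at 69.9, 64.5 and 67.6 CPM in cluster 4. It was therefore highest in the shallowest cluster 8 cells and above cluster 4 in each of the 3 ranges. FABP7 was at 415, 547 and 593 CPM in cluster 8 and at 1881, 1524 and 1801 CPM in cluster 4. MUCL1 was at 3978, 5366 and 8450 CPM in cluster 8 and at 3089, 4140 and 2173 CPM in cluster 4. Its difference was therefore much larger in the deepest range, which had no upper bound, than in the other 2. Between 20000 and 35000 UMIs the log2 ratios were 4.45 for GDF15, 1.68 for EDN1, 1.86 for SPTSSB, -1.54 for FABP7 and -0.94 for GAPDH.

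Cells of cluster 8 rich in GDF15 also had higher levels of most genes of the ATF4 list. Most of the genes that set the cluster apart from cluster 4 passed the fold in cells without GDF15 and also in cells rich in it. Of the 681 cells, 503 had 0 GDF15 UMIs, 89 had 1 or 2 and 89 had 3 or more. This cut is a range of 1 gene, set after its values were seen, and the 89 cells with 1 or 2 UMIs lie next to it. Cells with 3 or more UMIs had a median of 21270 UMIs and 21.6% mitochondrial UMIs, and those with 0 had 21462 and 21.5%. mVenus was seen in 62.9% and 67.2% of them. Apart from GDF15, 537 of 6932 genes (7.75%) were higher by at least 0.5 in the cells with GDF15 and 462 (6.66%) were lower.

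DDIT3, the stress factor also called CHOP, was at 97.0 CPM (83.9 to 112) in the GDF15-rich cells, 15.2 CPM in the cells without GDF15 and 10.8 CPM in cluster 4. SLC7A11, the cystine importer, was at 40.1, 5.32 and 3.86 CPM in the same order. HMOX1, heme oxygenase, was at 253, 33.3 and 11.5 CPM, and HSPA5, the main chaperone of the endoplasmic reticulum, at 396, 136 and 159 CPM. These genes were chosen after their values were seen. Among the ATF4 list, 18 of 24 genes other than GDF15 were higher by the fold in GDF15-rich cells and 0 lower, where 11.8% of all 11449 genes with at least 50 UMIs were higher and 11.2% lower. The list of endoplasmic reticulum folding genes had 12 of 20 higher and 0 lower, and MHC class I, which presents peptides to T cells, had 8 of 11 higher and 0 lower.

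Even these cells were uneven. Within the set of 89, the 9 cells richest in each gene held 48.2% of the GDF15 UMIs and 77.6% of those of DDIT3. For HMOX1, HSPA5 and KRT81 the shares were 76.6%, 59.4% and 92.5%. A UMI of HSPA5 was seen in 92.1% of the 89 cells and in 91.1% of the cells without GDF15. The list counts above rest on the same summed UMIs. KRT81, a hair-type keratin, summed to 585 CPM there and 4.42 CPM in cells without GDF15, but was seen in 20 of 89 cells. TFF1, an estrogen-induced secreted protein, was at 3911 CPM in the GDF15-rich cells, 797 CPM in those without and 1981 CPM in cluster 4. FABP7 and MUCL1 lay the other way, at 77.7 and 1161 CPM against 671 and 7340 CPM.

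Most genes that differed between clusters 8 and 4 also differed in the cells with no GDF15 UMI. These cells supplied 11080569 of the 15035209 UMIs on which the genes were called, so the overlap is partly set in advance. Of the 562 genes higher in cluster 8, 560 were higher and 435 were past the fold in those 503 cells alone, and of the 354 lower ones 354 were lower and 305 past the fold. SPTSSB, SAT1 and LINC01133 were at 346, 134 and 119 CPM in cells without GDF15 and at 267, 118 and 117 CPM in cells rich in it. EDN1, TXNRD1 and LTBP1 were higher in the GDF15-rich cells, at 340, 191 and 118 CPM against 205, 102 and 92.0 CPM. The median log2 ratio of the ATF4 list over cluster 4 was 0.08 in the cells without GDF15 and 0.27 in the whole cluster. By root mean square log2 difference over 2311 genes, the GDF15-rich cells lay 0.379 from the cells without GDF15, 0.538 from cluster 4 and 0.602 from cluster 13. The cells without GDF15 lay 0.378 from cluster 4. The GDF15-rich profile holds 2021104 UMIs and that of the cells without GDF15 11080569 UMIs. Counting error adds to such distances and is larger in the smaller profile, so the 0.379 and the 0.378 cannot be ranked or called equal.

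**Figure D3:**
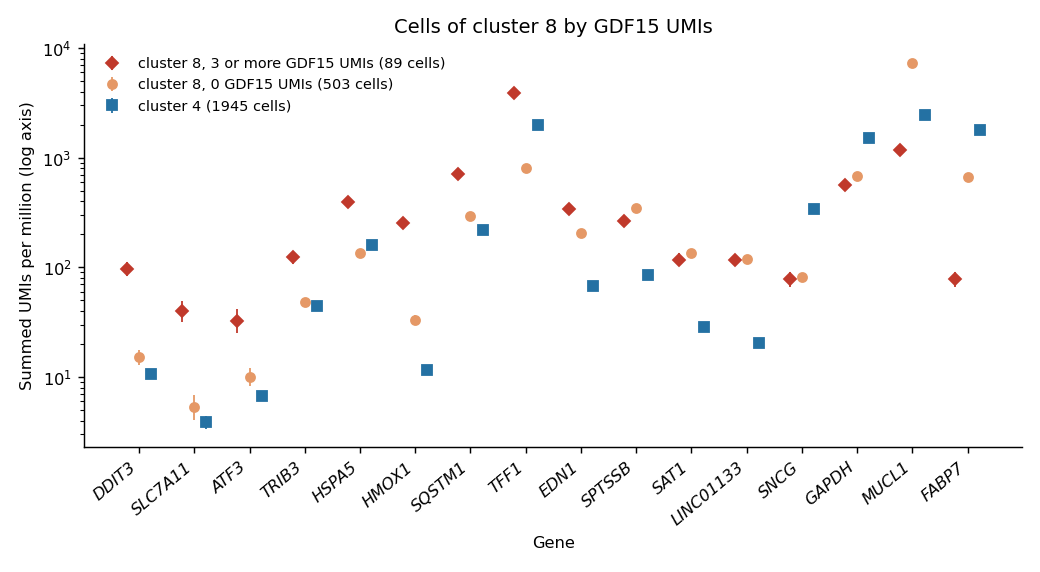
Levels in CPM (log axis) of 16 genes in cluster 8 cells with 3 or more GDF15 UMIs (red diamonds, 89 cells), cluster 8 cells with 0 GDF15 UMIs (orange circles, 503 cells) and cluster 4 cells (blue squares, 1945 cells). Bars are exact Poisson 95% intervals for counting error. DDIT3, SLC7A11, ATF3, TRIB3, HSPA5, HMOX1, SQSTM1, TFF1 and EDN1 are highest in the GDF15-rich cells. SAT1, LINC01133 and SNCG are near equal in both sets of cluster 8, and GAPDH is somewhat lower in the GDF15-rich cells.

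Genes of the dividing cell were lower in cluster 8 than in cluster 4. The authors' phase calls put 2 of 681 cluster 8 cells (0.294%, 0.0356% to 1.06%) in S or G2M, 88 of 1945 cluster 4 cells (4.52%, 3.64% to 5.54%) and 276 of the 703 other cells of the monoculture (39.3%). Phase calls depend on depth, and calls made anew on cells thinned to 5000 UMIs gave 24.7%, 44.7% and 65.6%, higher in level and in the same order. Of 54 G2M genes, 39 were lower by the fold and 0 higher, with a median log2 ratio of -0.89, where 7.31% of the 11450 genes with at least 50 UMIs were lower, 9.24% were higher and the median was 0.06. UBE2C, which marks mitotic proteins for destruction, was at 5.59 CPM against 32.5 CPM. CDK1, the mitotic kinase, was at 1.80 CPM against 12.5 CPM. Of 40 S phase genes, 22 were lower and 1 higher. In cells called G1 in both clusters the medians were -0.81 for G2M and -0.36 for S phase.

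In the CDK4/6 pathway, 6 of 19 genes were lower by the fold and 1 was higher, against 7.31% and 9.24% of all genes with at least 50 UMIs. CCND1, the cyclin D1 gene, was at 1166 CPM in cluster 8 and 2035 CPM in cluster 4. E2F1, which turns on S phase genes, was at 8.58 and 17.4 CPM. CDKN2B, which encodes the CDK4/6 inhibitor p15, was the higher one, at 20.4 CPM (18.1 to 22.8) against 7.88 CPM (7.18 to 8.63). CDKN1A, the gene of p21, was at 30.5 and 23.7 CPM, short of the fold.

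Estrogen-induced genes were lower as a group. Of 37 such genes, 17 were lower by the fold and 1 higher, with a median of -0.44, where 7.31% of all genes with at least 50 UMIs were lower and 9.24% higher. PDZK1, a scaffold protein, was at 7.25 CPM (5.95 to 8.75) in cluster 8 and 40.5 CPM (38.9 to 42.2) in cluster 4. IGFBP4, which binds insulin-like growth factors, was at 30.9 and 65.5 CPM, and GREB1, a cofactor of the receptor, at 37.8 and 56.7 CPM. In cluster 12 PDZK1 was at 7.97 CPM, near cluster 8, and IGFBP4 at 84.7 CPM. ELF1 was the higher one, with a log2 ratio of 0.94. ESR1, the receptor itself, was at 11.4 and 16.2 CPM. The luminal list had 4 of 18 genes higher and 2 lower against the same shares, so that its lower count was near that of all genes, with KRT7 at 1933 and 1058 CPM and ELF3, an epithelial transcription factor, at 278 and 140 CPM on the high side. KRT8 at 1256 and 2208 CPM and KRT18 at 1747 and 2891 CPM, the paired simple keratins, were on the low side.

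The ATF4 and immediate early lists had more members past the fold on the high side, where 9.24% of all genes with at least 50 UMIs were higher and 7.31% lower. Of 25 ATF4 genes, 9 were higher by the fold and 2 lower, PHGDH, the first enzyme of serine synthesis, and STC2, a secreted glycoprotein. Of 19 immediate early genes, 9 were higher and 0 lower, with KLF6 at 210 and 104 CPM and KLF2 at 125 and 60.8 CPM. FOS, the best known of them, was at 67.6 and 74.0 CPM. In cluster 12 KLF6 was at 66.6 CPM and KLF2 at 127 CPM. The 19 p53 targets had 6 higher, GDF15 among them, and 1 lower. BBC3, the proapoptotic gene also called PUMA, was at 33.1 CPM (30.2 to 36.1) against 9.60 CPM (8.82 to 10.4). MDM2, another direct p53 target, was at 32.5 and 27.0 CPM. Heat shock genes had 1 of 13 higher and 1 lower, with a median of -0.10. The folding genes of the endoplasmic reticulum had 0 of 20 higher and 1 lower, with a median of 0.03.

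Hypoxia-inducible genes and glycolytic genes, which overlap as targets of the oxygen-sensing factor HIF-1, were not alike in cluster 8. Of 29 hypoxia genes, 9 were higher and 3 lower, against 9.24% and 7.31% of all genes with at least 50 UMIs. The median log2 ratio was 0.24, while the summed level of the list was lower, at 866 CPM against 936 CPM. VEGFA, the vessel growth factor, was at 51.5 CPM (47.9 to 55.2) against 21.6 CPM (20.4 to 22.8), and EGLN3, an oxygen sensor that is itself induced, at 10.4 against 3.18 CPM. ANKRD37 was lower, at 83.1 against 193 CPM, and so was the glucose transporter gene SLC2A1, at 34.3 against 58.8 CPM. Of 17 glycolytic genes 0 were higher and 5 lower, GAPDH, SLC2A1, LDHA, ALDOA and TPI1.

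Several general features of the RNA moved with these groups, and their part in them was not tested. MALAT1, a noncoding RNA kept in the nucleus, was at 89513 CPM in cluster 8 and 50511 CPM in cluster 4, and all 4 nuclear-retained RNAs with at least 50 UMIs were higher by the fold. Cluster 12 had MALAT1 at 86568 CPM, so that level was not particular to cluster 8. In the 3 depth ranges used above, MALAT1 was at 97342, 94540 and 81822 CPM from shallow to deep cluster 8 cells and 67484, 65761 and 46967 CPM in cluster 4, so it was higher in cluster 8 in each. The deepest range had no upper bound, and its median depths were 27974 UMIs in cluster 8 and 33368 UMIs in cluster 4. The 77 cytosolic ribosomal protein genes were all on the low side, with a median of -0.32, and 12 passed the fold, where 57.5% of all genes with at least 50 UMIs were on the high side and 7.31% were lower by the fold. Among them, RPS12, RPS19 and RPL23A were at 1108, 1801 and 839 CPM in cluster 8 and at 809, 2230 and 1155 CPM in cluster 12. The 13 mitochondrially encoded genes had a median of 0.04. Genes with a long genomic span, with a median of 98.3 kb, were higher by the fold in 12.1% of 2310 cases and lower in 3.85%, while short genes, with a median of 8.40 kb, were higher in 6.10% and lower in 8.27%. Medians by chromosome ran from -0.02 to 0.13.

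The counts of the remaining lists are set against the same shares of all genes with at least 50 UMIs, 9.24% higher and 7.31% lower. The S100 family had 1 of 12 genes higher and 4 lower and a median of -0.28, with S100A8, an alarmin, at a log2 ratio of -2.11. Interferon-stimulated genes had 1 of 18 higher and 4 lower, with BST2, which tethers viruses to the membrane, at 199 against 375 CPM. The nuclear-encoded respiratory chain had 0 of 57 higher and 3 lower by the fold, but 53 of 57 were on the low side, where 57.5% of all genes were on the high side, with a median of -0.24 in the monoculture and -0.45 in coculture. The lysosome list had 0 of 24 higher and 4 lower. Apoptosis genes had 4 of 14 higher and 0 lower, and ID and BMP feedback genes 2 of 10 and 1. Mammary secretory products had 1 of 7 higher and 3 lower, metallothioneins 0 of 4 and 1, and fatty acid synthesis and storage 0 of 17 and 1. In MHC class I (11 genes), cholesterol synthesis (21), nucleolar ribosome biogenesis (19) and the mesenchymal list (5), 0 genes passed the fold either way. The sensitive lineage list had 1 of 6 higher and 2 lower, and all 3 resistant lineage genes were lower. Basal epithelial markers summed to 4.39 CPM in cluster 8 and 4.42 CPM in cluster 4.

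**Figure D4:**
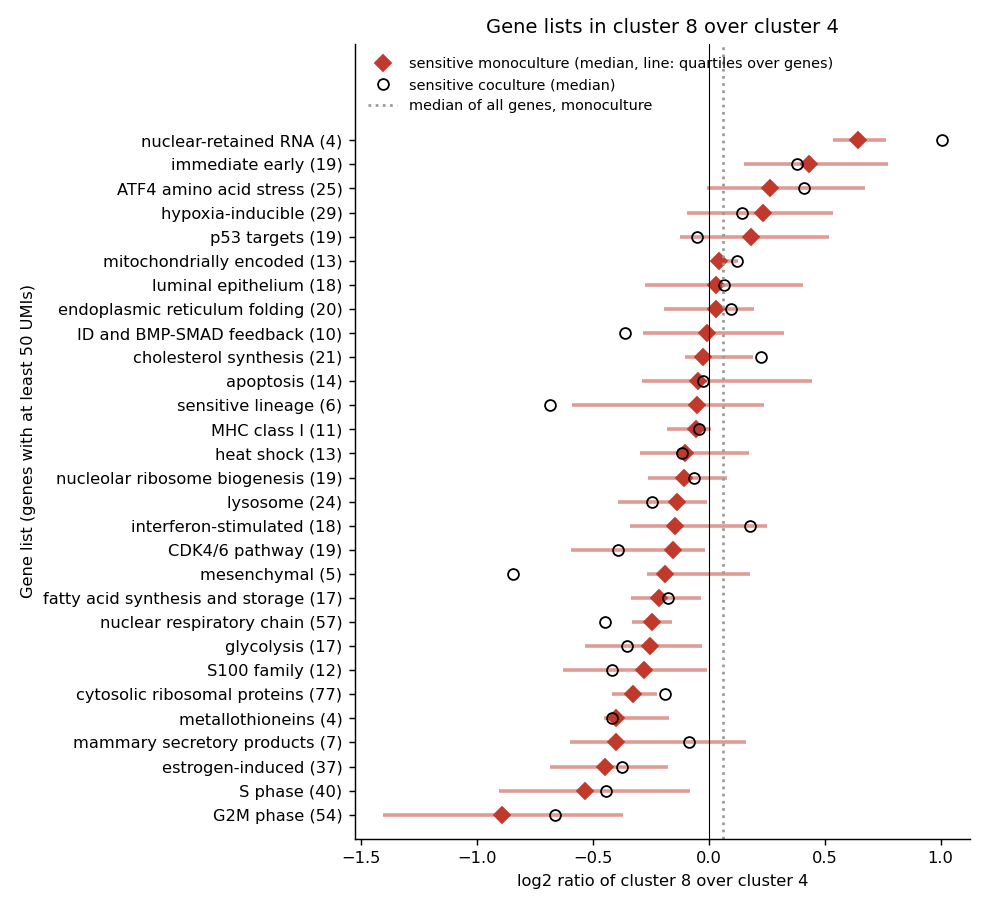
Median log2 ratio of cluster 8 over cluster 4 for each gene list with at least 4 genes of 50 UMIs (number of genes in brackets). Red diamonds are the sensitive monoculture, with lines to the quartiles over genes, open circles are the sensitive coculture and the dotted line marks the median of all genes, 0.06. The G2M, S phase and estrogen-induced lists lie lowest and nuclear-retained RNA and immediate early genes highest in the monoculture.

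The authors' clusters came from nearest neighbours among these cells, so a high share of cluster 8 neighbours was set by the clustering and is a description. In 20 principal components of the 2000 most variable genes of the sensitive monoculture alone, with 5000 UMIs kept per cell, 76.2% of the 30 nearest neighbours of a cluster 8 cell were cluster 8 cells. Of 681 cells, 552 had a majority of such neighbours, against 25 of 2648 other cells. By the summed profile cluster 4 was nearest, with a root mean square log2 difference of 0.394, followed by cluster 12 at 0.503, cluster 13 at 0.605 and cluster 3 at 0.609. The farthest was cluster 10 at 0.907. Profiles of the other clusters were summed over all their cells, so culture and lineage enter these distances as well.

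In coculture the few sensitive cells of cluster 8 lay on the same side of cluster 4 for most of the genes that differed in the monoculture. The 44 cells had 968776 UMIs and the 84 cluster 4 cells 2487598, so low genes are imprecise there. Over the same 6933 genes, 976 (14.1%) were higher and 1089 (15.7%) lower by the fold. Of the 562 genes higher in the monoculture, 528 had the same direction and 354 passed the fold, and of the 354 lower ones, 348 and 281 did. Over all 6933 genes, 5090 (73.4%) had the same direction in both. Both libraries were clustered together, so this likeness is partly set by how the members were chosen.

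GDF15 was at 194 CPM (167 to 224) in the 44 coculture cells and 14.5 CPM in the 84 cells of cluster 4, with a UMI in 15 and 6 of them. EDN1 was at 317 against 64.7 CPM. FABP7 was at 203 CPM (176 to 234) against 1052 CPM, and SNCG at 104 against 474 CPM. For each of these 4 genes cluster 8 lay on the same side of cluster 4 as in the monoculture. The p53 list had a median of -0.05 in coculture against 0.18 in the monoculture, and the mammary secretory list -0.08 against -0.40. ANKRD37 was further down in coculture, at 12.4 against 87.2 CPM, and PITX1 nearer to level, at 196 against 258 CPM.

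**Figure D5:**
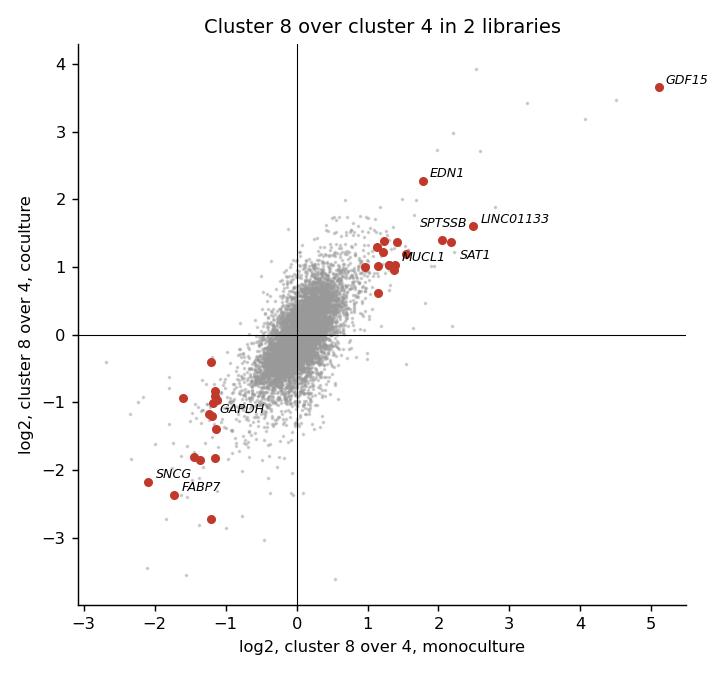
log2 ratio of cluster 8 over cluster 4 in the sensitive coculture (vertical, 44 and 84 cells) against the same ratio in the sensitive monoculture (horizontal, 681 and 1945 cells). Grey points are 6933 genes and red points the genes named by the rule as highest, lowest or above every other cluster. GDF15 lies at 5.10 and 3.66, FABP7 at -1.72 and -2.37, and all red points have the same sign in both.

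Resistant cells assigned to cluster 8 had higher EDN1, SAT1 and GDF15 than resistant cells grown alone had as a whole. The clustering used these expression values, so this difference is partly set by how the members were chosen. The 15 resistant members grown alone had mCherry UMIs in 11 cells and mVenus in 0. FABP7 had 0 UMIs in these 15 cells, and 6 UMIs in 4 of the 9 resistant coculture cells (33.1 CPM, 12.1 to 72.0). EDN1 was at 246 CPM (198 to 301), SAT1 at 576 CPM (502 to 658) and GDF15 at 264 CPM (215 to 321), the last with a UMI in 6 of 15 cells. In all resistant cells grown alone these genes were at 15.8, 25.5 and 9.11 CPM. The 9 resistant coculture cells had EDN1 at 331 CPM (253 to 426), SAT1 at 259 CPM (190 to 345) and GDF15 at 105 CPM (63.1 to 164). They are from another library than the resistant cells grown alone. Other genes were not as high as in the sensitive members. SPTSSB was at 100.4 CPM in the 15 cells and 116 CPM in the 9, against 354 CPM in the 681 sensitive cells, and MUCL1 was at 602 and 5318 CPM against 6421 CPM. MGP, a matrix protein abundant in the resistant lineage, was at 2653 CPM in the 15 cells and 282 CPM in the 681 sensitive ones. Clusters 0, 1 and 2, made up mostly of resistant cells, had SPTSSB at 52.7, 37.2 and 47.4 CPM. MUCL1 was at 597, 278 and 240 CPM there and MGP at 7588, 7021 and 5576 CPM. Clusters 6 and 10, also mostly resistant, had MGP at 1259 and 1086 CPM.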

How the data were processed

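Single-cell RNA counts were deposited by the authors as 1 table of UMI counts per library (genes in rows, barcodes in columns), made with Cell Ranger 3.0.2, and were used as deposited. The authors also deposited a table of annotated cells with cluster numbers, the mitochondrial percent and S and G2M phase scores and calls. Of its columns, 8 were not used. Rows with no gene symbol (10241) held at most 0.613% of a library's UMIs and were left out.

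UMIs were summed over cells and scaled to CPM (Python 3.11.15, numpy 2.4.6, scipy 1.17.1, scanpy 1.11.5). Ratios are log2 of CPM plus 1, so they understate changes of low genes. Calls needed a mean of 10 CPM and a log2 ratio of 0.5, and lists used genes with 50 or more UMIs. Intervals are exact Poisson or Clopper-Pearson (95%) and cover counting error only. With 1 library per condition no test was made. TMM factors came from edgeR 4.0.16 (R 4.3.3). Thinning drew 5000 UMIs per cell, and doublets, which the authors' methods removed with scrublet, were scored again and not removed. The methods also keep only cells with transgene UMIs, although annotated cells without one are in the table. The scripts were tested on simulated data.

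Named genes were FABP7, the 2 transgenes, the 15 highest and 15 lowest ratios at 50 CPM or more, the 10 highest over every other cluster and up to 3 genes per list. Other genes were chosen after their values were seen, as were the split by GDF15 and the run without GDF15 cells. The cluster and the 34 lists were chosen with earlier results of these data known. Alternatives covered scaling, depth, mitochondrial percent, phase, doublets, pseudocount and filters.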

Additional observations from a re-analysis of the deposited data

Results flagged for a closer look

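GDF15 was also found in barcodes of the sensitive monoculture library that the authors did not annotate, which is data outside the comparisons above. In 5314 such barcodes it had 961 UMIs, or 12.5 CPM, with a UMI in 5.66% of them. Scaled without mitochondrial genes, GDF15 was at 24.1 CPM there and at 24.8 CPM in the annotated cells of that library. Of the 5314 barcodes, 4489 had a mitochondrial percent of 30 or more. Their share from cells like those of cluster 8 was not tested.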

How the results depend on the processing

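No paired analysis between conditions was possible because each condition has 1 library and so no replicate numbers link conditions. Sensitive cells of clusters 8 and 4 occur in 2 libraries, but no fit over these pairs was run, since the clusters were drawn from the same genes. Against 562 higher and 354 lower genes, 950 were higher in cells with a mitochondrial percent below 20 and 307 at 20000 to 35000 UMIs. A pseudocount of 10 CPM gave 266 higher. Counts were 1058 and 837 over genes with 50 UMIs, 127 and 156 at a mean of 50 CPM, and 82 and 75 at a log2 ratio of 1. Lists with a median past 0.25 numbered 3 higher and 10 lower, against 5 higher below 20 mitochondrial percent and 6 lower with a pseudocount of 10. The 13 list medians past 0.25 reversed in 0 of 195 values, and the 88 named genes past the fold in 2 of 1320. These were MX1, at -0.049 against all other sensitive monoculture cells, and GDF15, at -1.73 without cells holding a GDF15 UMI, which follows from their removal. The FABP7 level in cluster 8 was 519 CPM as a mean over cells, 497 in cells with mVenus, 683 scaled without mitochondrial genes and 671 without GDF15 cells. The cycling share was 11.7% by own calls and 24.7% after thinning. Neighbours within the cluster were 82.9% unthinned. The distance to cluster 4 was 0.402 over genes of at least 10 CPM and 0.394 without mitochondrial genes. Cluster 8 held 22.9% of cells called G1 and 18.6% of those below 20 mitochondrial percent. The cause of these shifts was not tested. Low genes are imprecise in the 44, 15 and 9 members outside the sensitive monoculture.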
